A study of Drosophila melanogaster with 12 samples.

Results

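The 4 genes chinmo, mamo, Imp and Syp, which mark temporal identity in the fly brain, were followed through early metamorphosis in γ neurons of the mushroom body. They were taken by symbol, whatever their values, and are 4 of the 17050 genes in the deposited table. All 4 passed the filter on low values. The animals were Drosophila melanogaster pupae aged 6, 12, 18 or 24 h from puparium formation. Each age had 3 replicates, and their letters were A, B and C. Every library shared 1 genotype: y,w over a wild-type chromosome, 1 copy of UAS-RedStinger, which encodes a nuclear red fluorescent protein, and the driver 71G10 together with an RNA interference transgene against Hr51 (UAS-HR51 RNAi). The driver thus set both which cells were sorted and which cells had the interference. Males and females were mixed, and each library came from 1000 sorted DsRed-positive cells. A genotype without the interference was not analysed here, so the only groups that could be compared were the times. The labels do not say whether the replicates of a time came from separate dissections, and p-values therefore measure the spread between libraries, part of which may be technical.

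Mushroom body neuroblasts make γ neurons first and other Kenyon cell classes later. The RNA-binding proteins Imp and Syp form opposed gradients in these stem cells, with Imp high early and Syp high late. Both act after transcription on chinmo, which encodes a BTB zinc-finger transcription factor whose level sets the neuron class. A high level of Chinmo goes with γ fate and a lower one with the next class, whose identity needs mamo, another BTB zinc-finger factor. The γ neurons then prune and regrow their axons during metamorphosis under the steroid hormone ecdysone. How much of this transcript set is present in γ neurons while they remodel is what the values below measure.

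In the release 6 assembly (dm6), the plus-strand gene chinmo spans bases 1651258 to 1704682 of chromosome 2L, and Syp is on 3R from 20756729 to 20810726, also plus. The other two lie on the X chromosome on the minus strand, mamo from 13846116 to 13990527 and Imp from 10787869 to 10824277. All 4 are long: their spans, 36409 to 144412 bases, exceed those of 96.0% (Imp) to 99.8% (mamo) of the genes in the table. The BDGP6 annotation gives them 6 transcripts (chinmo), 7 (mamo), 12 (Imp) and 20 (Syp), with a longest 3′ UTR of 8533, 11537, 9200 and 4604 bases. The libraries were made from transcript 3′ ends, and the values hold all transcripts of a gene together.

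Libraries held 1597241 to 3752666 mapped reads, and values are reads per 10000000 mapped reads. Hr51, the target of the interference, stood at 2661 to 5666, which measures no knockdown without a control. The Kenyon cell markers (11 of 11 in the table) summed to 93270.2 to 122234 and the pan-neuronal markers (8 of 8) to 96272 to 178384 per library. Pka-C1 alone gave 28.5% of the Kenyon cell sum, while in A of 6 h sNPF was at 0 and prt at 4.3. The pan-neuronal sum was highest at 24 h (144370 to 178384). The gene fne alone gave 49.0% of it and stood at 76872 to 98636 at 24 h, against at most 59661 earlier. Markers of other cells were low: dividing cells summed to 50.8 to 448, fat body to at most 191, photoreceptors to at most 168, muscle to at most 60.7 and hemocytes to at most 50.8. The hemocyte markers Hml, NimC1, Sr-CI and eater, the muscle marker Mhc and the fat body marker Yp1 were at 0 throughout. The glial list summed to 1376 to 4823, of which nrv2 alone gave 96.7%, and the glial factor gene repo stood at 0 to 93.2.

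Replicate A of 6 h and of 12 h stood apart from B and C in genes outside the set. The steroid-response factor gene Eip93F stood at 10320.8 in the A library of 6 h, while B had 3779 and C had 4214. At 12 h the order turned, with 6018 in A, 20908 in B and 16519.7 in C. The BTB factor gene br stood at 194 against 1820 and 1246 at 6 h. Labels were kept as given. Whether these libraries carry exchanged labels was not tested, and an exchange would change what each 6 h and 12 h mean over 3 replicates stands for. Changes of the 4 genes are therefore given for the 12 libraries and for the 8 of replicates B and C (n = 2 at each time). That subset, chosen with the data seen, also leaves out A of 18 h and A of 24 h. No fit left out just A of 6 h and A of 12 h. Changes given per letter compare libraries that share only a name: of 18 same-letter correlations, 0 exceeded 0.1. Across all 6969 genes tested with limma, the 12 libraries gave 0 calls (0%) in each comparison, at an adjusted p under 0.05. From 6 to 24 h, 943 genes had an unadjusted p under 0.05, edgeR also called 0 genes and DESeq2 197, and without replicate A of 6 h limma called 676.

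The 2 transcription factor genes come first. In chinmo, values at 6 h were 5328, 4956 and 3844 in replicates A, B and C. At 12 h they were 6338, 8071 and 9952. At 18 h they were 6783, 5658 and 5109, and at 24 h 10512, 8816 and 6824. All libraries of 6 h lay below all of 12 h and all of 24 h, and all of 18 h lay below all of 24 h, while 12 h overlapped with 18 h and 18 h with 6 h. The later time lay wholly above the earlier in 4.89% of all genes for 6 to 12 h, in 6.46% for 18 to 24 h and in 8.25% for 6 to 24 h. The order of means was 6 h (4710 ± 772, SD, n = 3), 18 h (5850 ± 853), 12 h (8120 ± 1808) and 24 h (8717 ± 1846), and 12 and 24 h differed by less than their spread.

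From 6 to 24 h the log2 change of chinmo was 0.88 ± 0.24 (SE) in the 12 libraries, not called (limma adjusted p = 0.175), and in replicates A, B and C it was 0.98, 0.83 and 0.83. In B and C alone chinmo rose by 0.83 ± 0.22 (limma adjusted p = 0.0212), where 10.1% of all genes were called, 5.29% of all higher at 24 h. DESeq2 on the recovered reads also called it in the 12 libraries (0.90 ± 0.26, adjusted p = 0.0207), as did limma without replicate A of 6 h (0.98, adjusted p = 0.0135). Of all 6969 genes, DESeq2 called 197 there and left 3255 without an adjusted p, and that limma fit called 676. Over the 20 alternatives the adjusted p of chinmo ran from 0.0135 to 0.489. From 6 to 12 h the change was 0.78 ± 0.24 in the 12 libraries (adjusted p = 0.985), and chinmo rose by 1.04 ± 0.22 in B and C (adjusted p = 0.0078), where 5.6% of genes were called, 3.3% of all higher at 12 h and 2.3% lower. The next steps were not called in either set: −0.46 ± 0.24 from 12 to 18 h (−0.74 ± 0.22 in B and C) and 0.56 ± 0.24 from 18 to 24 h (0.53 ± 0.22), where B and C gave calls in 0.359% and 0.129% of genes. For any change over the 4 times, limma gave chinmo an adjusted p of 0.45 in the 12 libraries and 0.0131 in B and C, where 9.44% of genes were called. The chinmo call from 6 to 12 h in B and C ended without replicate C of 6 h, without replicate C of 12 h and without the filter, and that from 6 to 24 h without replicate C of 6 h, without replicate B of 24 h and without the filter.

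**Figure D1:**
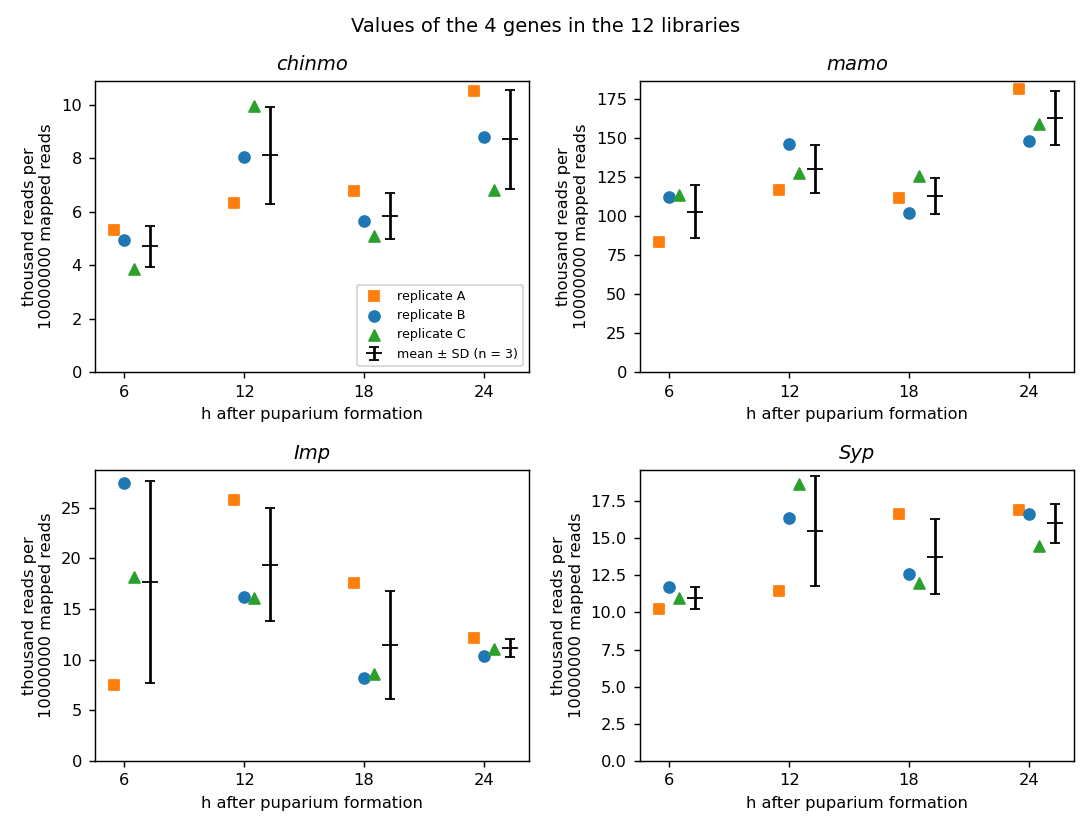
Value of each gene (in units of 1000 reads per 10000000 mapped reads, axes from 0) against hours after puparium formation; symbols are the libraries of replicates A, B and C, and black bars the mean ± SD of 3. For chinmo, mamo and Syp all libraries of 6 h lie below all of 24 h, as in 8.25% of all genes. For Imp replicate A lies far from B and C at 6, 12 and 18 h.

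The mamo transcript took a larger share of the reads than any other gene in 8 of the 12 libraries and ranked between 1 and 6 in all of them. This is a share of 3′-end reads, not a level per length. Its values were 83569.7, 112216 and 113302 in A, B and C of 6 h, or 0.836% to 1.13% of all reads. They were 116617, 146605 and 127737 at 12 h and 111675, 102215 and 125500 at 18 h. At 24 h they were 181831, 148289 and 158865, and the share reached 1.82%. All libraries of 24 h lay above all of 18 h and of 6 h, as in 6.46% and 8.25% of all genes. All of 12 h lay above all of 6 h, as in 4.89%, and 18 h overlapped both. The lowest mean was that of 6 h (103029 ± 16861, SD, n = 3), followed by 18 h (113130 ± 11711), 12 h (130320 ± 15159.5) and 24 h (162995 ± 17149).

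No change of mamo was called. From 6 to 24 h it was 0.67 ± 0.23 (SE) on the log2 scale in the 12 libraries (limma adjusted p = 0.241) and 0.44 ± 0.16 in B and C (adjusted p = 0.102), with 1.12, 0.40 and 0.49 in replicates A, B and C. Step by step, mamo differed by 0.35 ± 0.23 between 6 and 12 h, by −0.20 ± 0.23 between 12 and 18 h and by 0.53 ± 0.23 between 18 and 24 h, the last with all 3 letters higher at 24 h (0.70, 0.54 and 0.34). The same steps in B and C were 0.28 ± 0.16, −0.27 ± 0.16 and 0.44 ± 0.16. DESeq2 gave the lowest adjusted p for 6 to 24 h in the 12 libraries, 0.0633, and over the 20 alternatives it ran to 0.492. At 18097 to 46864 reads per library, counting error on mamo was at most 1.46% of the value (the reach of the exact 95% Poisson interval to either side), below its spread of 10.4% to 16.4% (coefficient of variation) within a time. Over the 12 libraries the SD of its log2 values, 0.31, exceeded that of 29.8% of the 1808 genes with a mean of at least 1000, whose median SD was 0.37 and nearly all of which had fewer reads.

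Of the 2 RNA-binding protein genes, Imp varied most. Its values at 6 h were 7465 in replicate A against 27439 in B and 18156 in C, so the lowest and the highest of the 12 libraries stood at the same time. At 12 h they were 25797, 16219.5 and 16120.3, and at 18 h 17585 and, in B and C, 8189.9 and 8572. At 24 h the 3 replicates came together, at 12125, 10366 and 11076. In replicates B and C, 12 h and 24 h lay wholly below 6 h, and 18 h lay wholly below 12 h and wholly below 24 h. In B and C, the later time lay wholly below the earlier in 18.1% of all genes for 6 to 12 h, 19.8% for 12 to 18 h and 23.7% for 6 to 24 h, and wholly above in 17.0% for 18 to 24 h. In replicate A, the order from high to low was 12, 18, 24 and 6 h. The SD of log2 values within a time, 0.61, was nearly that over all 12 libraries, 0.63, which exceeded the SD of 85.3% of the 1808 genes.

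Between 6 and 24 h Imp fell in B and C, the means being 22798 ± 6564 (SD, n = 2) and 10721 ± 502. On the log2 scale this was −1.06 ± 0.20 (SE), at an adjusted p of 0.00205 by limma. Of all genes, 10.1% were called in this comparison, 4.78% of all lower at 24 h. In the 12 libraries the change was −0.47 ± 0.39 (adjusted p = 0.656), with 0.70, −1.40 and −0.71 in A, B and C, and without replicate A of 6 h it was −0.999 (adjusted p = 0.0385). Over its 22 alternatives the adjusted p ran from 0.00205 to 0.975. From 12 to 18 h the differences within a letter, which pairs libraries by name only, were −0.55, −0.99 and −0.91. The times overlapped, as A of 18 h (17585.5) lay above B and C of 12 h (16219.5 and 16120.3). The change was not called by limma in the 12 libraries (−0.82 ± 0.39, adjusted p = 0.762). Nor was it called in B and C (−0.95 ± 0.20, adjusted p = 0.0516), where 0.359% of genes were called. Under 7 of the 16 alternatives in B and C it was called (DESeq2, edgeR, pseudocount 10, the letter as block, CR45204 taken off, and without either library of 6 h), and the adjusted p ran from 0.00149 to 0.387. From 6 to 12 h the direction differed between the sets, 0.29 ± 0.39 in the 12 libraries and −0.47 ± 0.20 in B and C, with neither called. Of the 16 alternatives in B and C, 2 called it: DESeq2 (−0.64, adjusted p = 0.0379) and leaving out replicate C of 6 h (−0.76, adjusted p = 0.0377), while without replicate B of 6 h it was −0.17 (adjusted p = 0.765). From 18 to 24 h it was 0.06 ± 0.39 and 0.35 ± 0.20, not called. The Imp call from 6 to 24 h in B and C held under 15 of 16 alternatives and ended without the filter (adjusted p = 0.0572).

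The Imp row shares sequence with another row of the table. CR45204, a noncoding RNA gene on X from 10794338 to 10796292 on the same strand, lies within the 3′ UTR of Imp: 4 of the 12 annotated Imp transcripts hold it whole in their 3′ UTR, and 4 distinct Imp transcript ends fall inside it. Its value was 28.3% to 42.3% of that of Imp in every library, and its reads cannot be told from those of Imp. Between 6 and 24 h it changed by −1.25 ± 0.26 in B and C (limma adjusted p = 0.00439), against −0.61 ± 0.42 in the 12 libraries (adjusted p = 0.575). With the CR45204 value taken off that of Imp, the change of Imp from 6 to 24 h in the 12 libraries was −0.40, and with it added −0.51. In B and C, with it taken off, Imp fell by 0.96 (limma adjusted p = 0.00446). In the other genes, overlapping rows were small: CG31195, antisense to Syp, reached at most 3.25% of the Syp value, CG11068 at most 5.4 units inside mamo, and no row of the table overlapped chinmo.

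The Syp gene encodes the fly homologue of SYNCRIP, an hnRNP protein. Its values at 6 h were 10226, 11722 and 11006 in A, B and C, and at 12 h 11429.6, 16383 and 18646. They were 16653, 12595 and 12014 at 18 h and 16911, 16628 and 14475 at 24 h. All libraries of 24 h lay above all of 6 h, as in 8.25% of genes, and the libraries of neighbouring times overlapped. The order of the Syp means was 6 h (10985 ± 748, SD, n = 3), 18 h (13754 ± 2527), 12 h (15486 ± 3691) and 24 h (16005 ± 1332), and the upper 3 differed from their neighbours by less than their spread.

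From 6 to 24 h the log2 change of Syp was 0.54 ± 0.22 (SE; limma adjusted p = 0.311) in the 12 libraries and 0.45 ± 0.17 (adjusted p = 0.128) in B and C, with 0.73, 0.50 and 0.40 in A, B and C. It was not called under any of the 20 alternatives, whose adjusted p ran from 0.128 to 0.591. From 6 to 12 h it was 0.47 ± 0.22 (adjusted p = 0.985), and in B and C Syp rose by 0.62 ± 0.17 (adjusted p = 0.049). That call held under only 3 of 16 alternatives in B and C, with an adjusted p up to 0.348, and ended under median-ratio and TMM scaling. The later steps were −0.16 ± 0.22 and 0.23 ± 0.22 in the 12 libraries and −0.51 ± 0.17 and 0.33 ± 0.17 in B and C, none called. Median-ratio scaling moved the median of all genes in B and C by −0.13 from 6 to 12 h and by 0.11 from 18 to 24 h. Under it the change of chinmo, mamo, Imp and Syp kept its sign in every comparison, in the 12 libraries and in B and C. Its size moved: from 6 to 12 h in B and C it became 0.90 for chinmo, 0.15 for mamo, −0.60 for Imp and 0.49 for Syp.

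**Figure D2:**
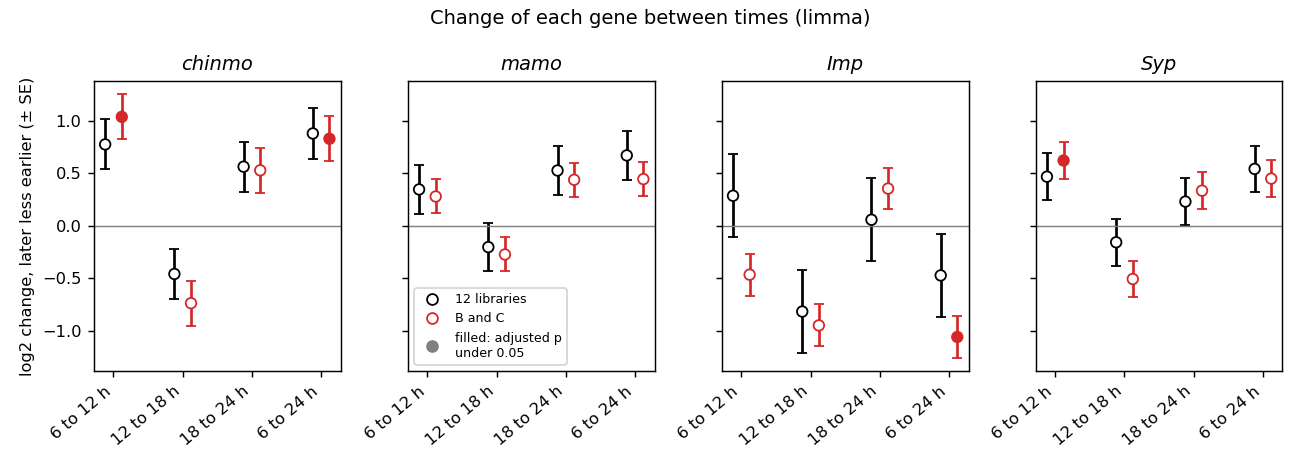
Log2 change of each gene (later less earlier time, ± SE, limma) in 4 comparisons, in the 12 libraries (black) and the 8 libraries of replicates B and C (red); filled points have an adjusted p under 0.05. Filled points are chinmo from 6 to 12 h and from 6 to 24 h, Imp from 6 to 24 h and Syp from 6 to 12 h, all in B and C.

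The ratio of Imp to Syp within a library does not depend on how libraries are scaled. Its log2 value at 6 h was −0.45, 1.23 and 0.72 in A, B and C. It was 1.17, −0.015 and −0.21 at 12 h and 0.08, −0.62 and −0.49 at 18 h. At 24 h it was −0.48, −0.68 and −0.39, below 0 in all 3 replicates. It was above 0 in 4 libraries, namely B and C of 6 h, A of 12 h and A of 18 h. The exact permutation test over samples, on the F statistic of the 4 times, gave p = 0.184 in the 12 libraries (n = 3 per time). For B and C, the 6 h mean was 0.97 ± 0.36 (SD, n = 2), the 12 h mean −0.11 ± 0.14, the 18 h mean −0.55 ± 0.095 and the 24 h mean −0.53 ± 0.21. The exact permutation p was 0.0286 there, where 0.00952 is the smallest that 4 times of 2 allow, and 0.0457 over the 11 libraries without replicate A of 6 h. With the letter as a block the exact permutation p in B and C was 0.0833, no longer under 0.05.

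**Figure D3:**
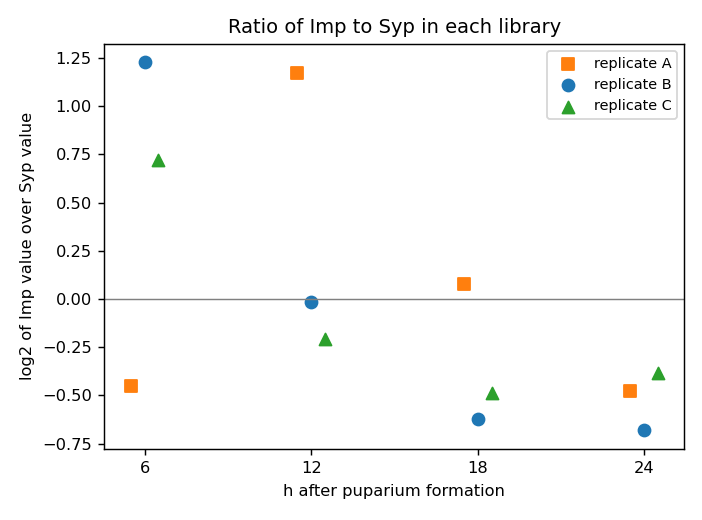
Log2 of the Imp value over the Syp value in each of the 12 libraries, against hours after puparium formation; symbols are replicates A, B and C and the grey line is equal values. At 24 h all 3 replicates lie between −0.68 and −0.39, and at 6 h replicate A (−0.45) lies apart from B (1.23) and C (0.72).

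The patterns of chinmo and Syp were alike. Likeness was taken as Pearson's r of log2 values across libraries, among 4711 genes with a mean of at least 200, and is a description over libraries that share depth, time and handling. Over the 12 libraries Syp ranked 2 for likeness to chinmo (r = 0.88, Spearman's rho = 0.85), and chinmo ranked 3 for likeness to Syp. Without the 2 libraries farthest from the chinmo median, C of 6 h and A of 24 h, r was 0.89. Over the 8 libraries of B and C it was 0.99, with identical rank order (rho = 1), and each ranked 1 or 2 for the other. In contrast, r with Imp over the 12 libraries was −0.058 for chinmo, 0.057 for mamo and 0.036 for Syp. For mamo, r was 0.66 with chinmo (rank 130) and 0.68 with Syp (rank 122).

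Outside the 4 genes, those nearest to chinmo over the 12 libraries were Sema-1a (r = 0.88), which encodes a transmembrane semaphorin of axon guidance, Maf1 (0.87), a repressor of RNA polymerase III, and pho (0.84), a Polycomb-group DNA-binding factor. Nearest to Syp were CG40178 (0.91), pho (0.90) and Sema-1a (0.87). Nearest to mamo were CG31998 (0.91), CG40045 (0.90) and Atf6 (0.89), a transcription factor of the endoplasmic reticulum stress response. Nearest to Imp was CR45204 (0.98), which shares its sequence, then Cngl (0.97), a cyclic nucleotide-gated channel-like gene, and X11Lbeta (0.96), an adaptor protein gene. Over B and C alone the nearest to chinmo were Gfrl (0.99), east (0.93) and DIP1 (0.91), and to Syp Gfrl (0.96), DIP1 (0.95) and CG16711 (0.93). For Imp they were CG42666 (0.98), CR45204 (0.97) and the RNA-binding protein gene aret (0.97). For mamo they were Sirt1 (0.94) and 2 copies of the repeated Su(Ste) genes, CR42410 and CR40820 (both 0.93), whose reads may be split between copies.

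**Figure D4:**
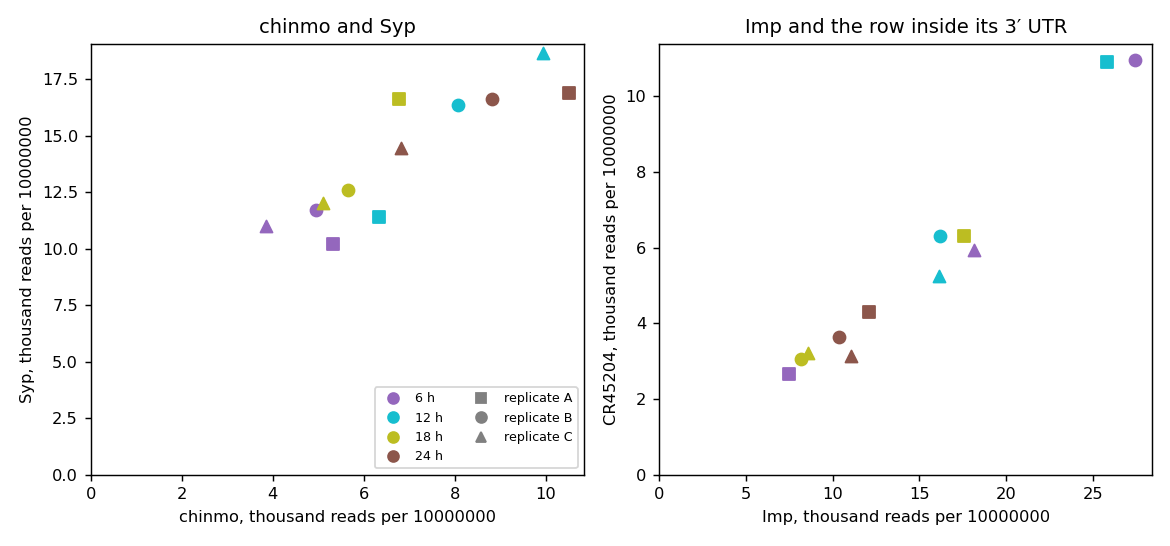
Left, Syp against chinmo, and right, CR45204 against Imp, in units of 1000 reads per 10000000 mapped reads, 1 point per library; colour gives the time and shape the replicate. Pearson's r of the log2 values is 0.88 on the left and 0.98 on the right, over 12 libraries.

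Other genes of temporal patterning formed a list of 21 names, of which 20 matched, on 19 distinct genes of the table, and 12 genes passed the filter. From 6 to 24 h in B and C, 4 of the 12 rose and 1 fell. The list's median change was −0.02, against 0.07 over all genes, and 5.29% of all genes were called higher and 4.78% lower. Eip93F, a late-acting ecdysone-response factor, rose from 3996 ± 307 (SD, n = 2) to 17631 ± 35.9, or 2.14 ± 0.19 on the log2 scale (SE; limma adjusted p = 1.47e-06). The BTB factor gene ab, a target of the let-7 microRNA, rose from 132 ± 35.9 to 1613 ± 525 (3.59 ± 0.37, adjusted p = 8.64e-06). The ecdysone receptor gene EcR rose by 1.58 ± 0.22 (adjusted p = 0.000123). The primary transcript gene let-7-C, source of the let-7 microRNA that represses chinmo in Kenyon cells, rose from 253 ± 56.8 to 1030.2 ± 60 (2.04 ± 0.49, adjusted p = 0.0136). The factor gene br fell by 1.21 ± 0.33 (adjusted p = 0.028). In the 12 libraries the changes, none called, were 1.81 ± 0.41 for Eip93F, 2.67 ± 0.64 for ab, 1.21 ± 0.39 for EcR, 1.68 ± 0.61 for let-7-C and −0.11 ± 0.60 for br. Eip93F and br are also the genes given above for replicate A standing apart. Leaving A out removed libraries that differed in these genes, so their calls in B and C are not independent of that choice.

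From 6 to 12 h in B and C, Eip93F, ab, EcR and let-7-C rose, the last at an adjusted p of 0.0494 by limma, and 0 of the 12 fell. Of all genes, 3.3% were called higher in that step and 2.3% lower. From 12 to 18 h only br among the 12 passed, lower at 18 h (−1.66 ± 0.33, limma adjusted p = 0.0446, where 0.33% of all genes were called lower). From 18 to 24 h 0 of the 12 passed, and 0.129% of all genes were called. In the 12 libraries 0 of the 12 passed in any comparison (0% of all genes). The let-7-C values in replicate A were 547, 149.9, 589.8 and 1067 in the order of the times. The translational repressor gene brat stood at 23876 to 48491 and differed by −0.31 ± 0.17 from 6 to 24 h in B and C and by 0.028 ± 0.27 in the 12 libraries (neither called). The earlier temporal factor genes svp and hb were at 0 in all 12 libraries, and lin-28 reached at most 8.44.

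**Figure D5:**
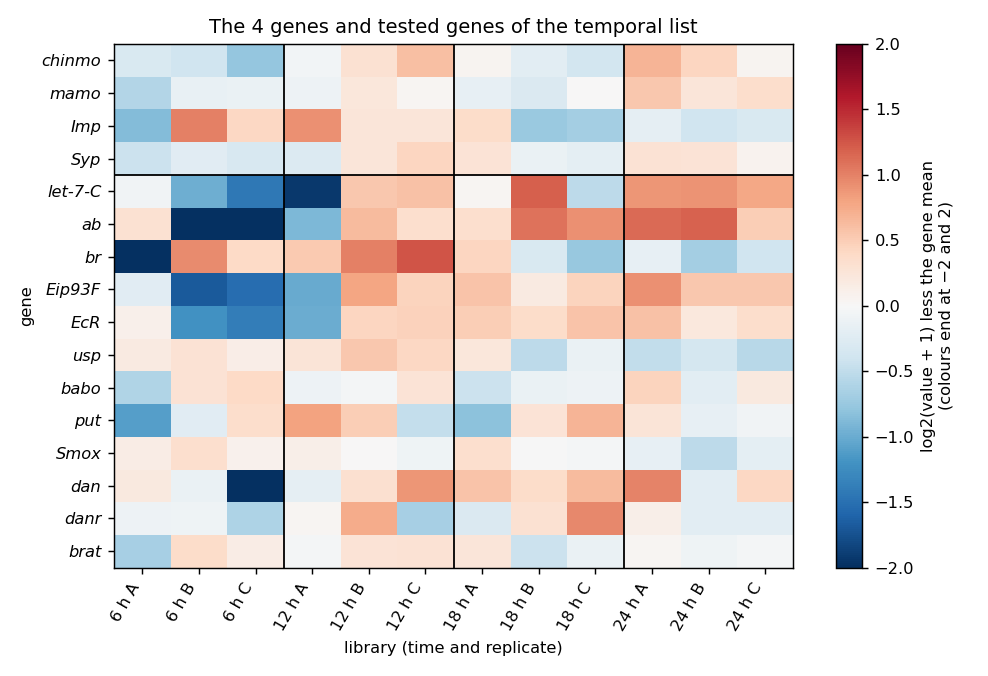
Log2(value + 1) of the 4 genes (above the line) and of the 12 tested genes of the temporal list, less each gene's mean over the 12 libraries, with libraries in order of time and replicate. In B and C, ab, Eip93F and EcR are below their mean at 6 h and above it at 12, 18 and 24 h, while replicate A of 12 h has all 3 below the mean.

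Among other BTB zinc-finger genes, of which 16 matched and 11 passed the filter, 1 rose (ab) and 2 fell (Trl and br) from 6 to 24 h in B and C, where 5.29% of all genes were called higher and 4.78% lower. The list's median log2 change was −0.30, against 0.07 over all genes. Trl, which encodes GAGA factor, fell from 6036 ± 878 (SD, n = 2) to 2904 ± 50 (−1.05 ± 0.25, SE; limma adjusted p = 0.0135). Replicate A went the other way, from 2968 to 4644, and the 12 libraries gave −0.48 ± 0.31 (adjusted p = 0.526). The axon guidance regulator gene lola stood at 13569 to 25167 and differed by −0.30 ± 0.17 in B and C and by 0.0059 ± 0.23 in the 12 libraries (neither called). From 6 to 12 h 1 rose (ab; 3.3% of all genes), from 12 to 18 h 1 fell (br; 0.33%) and from 18 to 24 h 0 passed (0.129%). These lists move beside pan-neuronal markers, of which 3 of 8 were called higher from 6 to 24 h in B and C (futsch, fne and Syt1), and beside Kenyon cell markers, with 2 of 11 (Pka-C1 and Dop1R1). The 1 gene of the glial list tested, nrv2, was called lower there, from 4339 ± 496 (SD, n = 2) to 1899.9 ± 987 (−1.29 ± 0.31, SE; limma adjusted p = 0.0135), and gave −0.84 ± 0.34 in the 12 libraries (adjusted p = 0.297). The rest of the glial list did not pass the filter (at most 127, Gs2), and whether nrv2 marks glia in these samples was not tested. Of all genes, 5.29% were called higher and 4.78% lower in this comparison. Their part in the changes of the 4 genes was not tested. In these bulk samples, fewer cells with a transcript and less RNA per cell cannot be told apart.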

How the data were processed

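Per the labels, 1000 sorted cells per library were profiled by MARS-seq, a 3′-end method. Tools listed, per the submitters' processing notes, are HISAT 0.1.5, HOMER and bcl2fastq, with no roles. The deposited table holds a normalised signal per gene, which the authors scaled to 10000000 mapped reads, per the file headers. The sources used here do not say how multiply mapped or overlapping reads and molecular identifiers were handled, and counting intervals cover counting error only. Reads over all genes summed to 99.3% (C of 6 h) to 101.7% (A of 6 h) of the mapped reads. Where the sum exceeded 100%, some reads were counted in more than 1 row. Which rows shared reads was not tested. In every library 100% of values were whole multiples of 1 read (tolerance 0.02 reads), giving recovered read counts for edgeR 4.0.16 and DESeq2 1.42.0, used as alternatives.

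The main test, on log2(value + 1) in all 12 libraries, was limma 3.58.1 in R 4.3.3, with 1 mean per time and a mean-variance trend. It ran on the 6969 genes that reached 50 in 3 or more libraries. A fold change on this scale understates that of low genes. Benjamini-Hochberg adjustment ran over all of them, and a gene was called under 0.05. DESeq2 left some genes without an adjusted p, so its adjustment ran over fewer. The test was also run on simulated data in which no library stood apart from the others of its time. That run cannot show whether the calls in B and C are reliable. Coordinates are counted from 1, and 4 of the 4 genes had those of the BDGP6 annotation.

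The genes, lists, tests and the use of replicates B and C were chosen with earlier results of these data known. Genes were named by rule: the 4 always, up to 4 called members of each list by smallest p, and the 3 nearest in pattern. Named outside the rule, after their values were seen, are brat, lola, svp, hb, lin-28, mub, Hrb27C and the called markers. Alternatives covered the pseudocount, filter, scaling, tool, replicate block and left-out libraries. Taking CR45204 off or adding it to Imp was chosen after seeing the data.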

Additional observations from a re-analysis of the deposited data

How the results depend on the processing

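Of 427 alternative values for 21 results, 408 kept direction and side of the threshold, 14 passed it where the 12 libraries did not, and 5 changed sign. In replicates B and C alone the log2 changes that passed were 1.04 (chinmo) and 0.62 (Syp) from 6 to 12 h, and 0.83 (chinmo) and −1.06 (Imp) from 6 to 24 h. Adjusted p for any change over the 4 times was 0.0131 (chinmo) and 0.000619 (Imp) by limma, and the exact permutation p of the Imp to Syp ratio was 0.0286. Imp from 6 to 12 h turned to −0.47. DESeq2 gave chinmo 0.90 from 6 to 24 h and an adjusted p of 0.0452 for any change. For any change it called 121 of 6969 genes and left 3254 without an adjusted p. The cause was not tested. With 1 library left out, the change of Imp ran from −0.24 (without replicate A of 6 h) to 0.70 from 6 to 12 h, and from −0.14 (without B of 18 h) to 0.41 from 18 to 24 h, where C of 18 h and A of 24 h also turned it. From 6 to 24 h it ran from −0.999 to −0.060 for Imp and from 0.73 to 1.04 for chinmo. The adjusted p for any change ran from 0.0391 to 0.739 for chinmo and from 0.0376 to 0.797 for Imp, and the permutation p of the ratio from 0.0457 to 0.305. Each lowest p was without replicate A of 6 h. With the letter as a replicate block in the 12 libraries, chinmo from 6 to 24 h kept 0.88 (adjusted p = 0.303), the ratio had p = 0.288 (exact permutation), and no call changed. The letters share only a name: of 18 correlations of same-letter deviations, 0 exceeded 0.1 (−0.34 to 0.07). In B and C the block gave the ratio an exact permutation p of 0.0833. Counts of all genes called in B and C were 390, 25, 9 and 702 in the order of the 4 comparisons, and 658 for any change, against 0 in the 12 libraries, where DESeq2 called 3, 5, 23, 197 and 121 and limma with median-ratio or TMM scaling 4 from 18 to 24 h. Depth limited chinmo most: at 614 reads in C of 6 h its 95% counting interval was ± 7.99%.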

Other observations

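A list of other RNA-binding protein genes, among them those of the KH and hnRNP families, had 20 matched genes, of which 19 passed the filter. In replicates B and C, 6 of the 19 rose and 1 fell from 6 to 24 h, where 5.29% of all genes were called higher and 4.78% lower, with a median log2 change of 0.58 against 0.07 over all genes. The largest change was that of how, which encodes the STAR-family splicing regulator Held out wings, from 133 ± 72.5 (SD, n = 2) to 1698 ± 696 (3.72 ± 0.43, SE; limma adjusted p = 2.19e-05). The translational regulator gene orb2, needed for long-term memory, rose from 336 ± 14.7 to 1696 ± 62.1 (2.33 ± 0.35, adjusted p = 0.000228). The polypyrimidine tract-binding protein gene heph rose by 1.55 ± 0.28 (adjusted p = 0.00127), and pum, mub and Hrb27C rose too. Rox8 fell from 10440 ± 3378 to 4106 ± 404 (−1.31 ± 0.24, adjusted p = 0.00145).

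From 6 to 12 h in B and C, how and pum rose and 0 of the 19 fell (3.3% and 2.3% of all genes). From 12 to 18 h and from 18 to 24 h 0 passed (0.359% and 0.129% of all genes). Over the 12 libraries 0 of the 19 passed in any comparison, and from 6 to 24 h the changes were 2.55 ± 0.85 (SE) for how, 1.64 ± 0.39 for orb2, 0.99 ± 0.44 for heph and −0.92 ± 0.28 for Rox8. The replicate A values of how, in the order of the times, were 1633, 316, 512 and 1878, and those of Rox8 were 5066, 8229, 5269 and 4628.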
